A study of Mus musculus with 25 samples.

Results

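Enzymes that burn fatty acids in the mitochondrion, together with the nuclear receptor gene *Ppard*, were followed after deletion of *Znf143* in murine hematopoietic stem cells. The members are 10 genes of 23116 in the expression table, taken as a named list: *Cpt1a*, *Cpt2*, *Acadvl*, *Acadl*, *Acadm*, *Hadha*, *Hadhb*, *Echs1*, *Acaa2* and *Ppard*. All 10 passed the filter on low values. RNA-seq was performed on HSLAM cells (lineage-, Sca-1+, c-kit+, CD150+, CD48-), sorted from bone marrow of adult C57BL/6 mice. Cells came from 3 *Znf143 f/f* x *Rosa26ERT2-Cre-* mice, called *Znf143 f/f*, and from 3 *Znf143 f/f* x *Rosa26ERT2-Cre+* littermates, called *Znf143 -/-*, aged 8 to 12 weeks. All 6 mice carried the floxed allele and received tamoxifen at the middle dosage for 10 days. The Cre is active in all tissues and is absent from the controls, so that its presence and the deletion cannot be told apart. The sample labels name the deleted genotype a CTCF knockout, whereas the methods of the study describe a *Znf143* deletion.

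Fatty acids are activated to acyl-CoA and handed to carnitine by CPT1A, the step that limits entry into the mitochondrion, and CPT2 turns them back into acyl-CoA inside. Each round of beta-oxidation then runs through an acyl-CoA dehydrogenase, a hydratase, a hydroxyacyl-CoA dehydrogenase and a thiolase. For long chains, the last steps are carried by the trifunctional protein of HADHA and HADHB, while ECHS1 and ACAA2 act mainly on shorter chains. PPARD is a nuclear receptor that binds fatty acids and activates many of these genes, and fatty acid oxidation under PPARD is known for its role in the maintenance of hematopoietic stem cells.

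The members did not move in 1 direction. *Acadvl*, the dehydrogenase for very long chains, fell to 37.4% of its control level, whereas *Acadl*, the dehydrogenase for long chains, rose 1.67-fold and *Acaa2*, a thiolase, rose 1.46-fold. The gate enzyme *Cpt1a* was 1.78-fold higher by its means and lay above all controls, but it missed the threshold. The other 6 members overlapped between genotypes. Of the 10 members, 3 were called (2 higher and 1 lower), where a call is an adjusted p under 0.05 in limma over all genes with Benjamini-Hochberg adjustment. Over all 19279 genes tested, 5.99% were called, 3% higher and 2.99% lower. The ranges of both genotypes did not overlap for 4 of the 10 members and for 30.7% of all genes tested. The median log2 fold change (*Znf143 -/-* minus *Znf143 f/f*) of the members was 0.19, beside 0.0065 over all genes tested.

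Levels are given as scaled FPKM, which are fragments per kilobase of listed gene length relative to the library total, divided by a size factor for each library. The libraries held 38643255 to 57895793 fragments on genes. The third *Znf143 -/-* library had been divided by the total of the second in the deposited values, 1.20 times too small, which the size factors correct. On the deposited scale the median log2 fold change of all genes rose to 0.11, and 63.5% of the called genes were higher in place of 50.1%. *Zfp143*, the mouse gene for ZNF143, was measured at 3.07, 4.43 and 3.66 in *Znf143 f/f* and at 0.155, 0.298 and 0.270 in *Znf143 -/-* libraries. Its log2 fold change was -3.50 ± 0.239 (SE, limma adjusted p = 0.00100).

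Marker genes of the gate and of other cells were read in the same libraries. Of 10 stem cell markers, 1 was called higher (*Ly6a*) and 1 lower (*Mecom*). The CD150 gene *Slamf1* was measured at 5.14 to 7.59 in *Znf143 f/f* and 7.87 to 9.03 in *Znf143 -/-* libraries and was not called. *Kit*, the c-kit gene of the gate, was measured at 19.4 to 22.1 against 13.5 to 16.8, and *Hlf* at 21.9 to 27.3 against 18.1 to 18.7, both not called. Among the markers not called, only *Slamf1* and *Ctnnal1* had a higher mean after deletion. *Cd48*, whose protein is gated out, rose from 9.56 to 11.1 up to 19.6 to 20.4, and *Flt3*, a marker of later progenitors, rose from 4.97 to 5.39 up to 15.5 to 16.0. Of 9 granulocyte and monocyte markers tested, 5 were called higher. Among them, *Csf1r* passed the filter on low values only through the deleted libraries. The summed level of the list was 199 to 267 in *Znf143 f/f* and 266 to 422 in *Znf143 -/-* libraries. Most of this sum was *Prtn3*, at 121 to 226 against 140 to 278, which was not called (limma adjusted p = 0.970), so that the sum says little of the genes called. The lymphoid sum was 0.189 to 0.342 against 7.18 to 8.02, almost all of it *Dntt*, with *Il7r* at 0 in all 3 *Znf143 f/f* libraries and *Cd79a* and *Cd3e* at or near 0 in all 6. The erythroid sum was 242 in the second *Znf143 f/f* library, 71.4 in the lowest control and 66.2 to 71.3 in *Znf143 -/-* libraries, with 1 of 8 genes called (*Hbb-bt*, lower). None of 5 megakaryocyte markers was called, and their sum was 526 to 604 against 647 to 976. The part of these shifts in the results on the members was not tested. In bulk RNA, fewer cells of a type and less RNA per cell cannot be told apart.

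The promoters of *Acadvl*, which fell, and *Acadl*, which rose, are shown because these dehydrogenases of neighbouring chain length moved apart. Both run from 250 bases before to 30 bases after the RefSeq start (GRCm38.p6, 5′ to 3′ on the minus strand of each gene), at chr11:70015399-70015678 and chr1:66863280-66863559. Capitals mark the letters CCCANNATG, which were searched on both strands after the *Acadvl* sequence had been read.
Acadvl: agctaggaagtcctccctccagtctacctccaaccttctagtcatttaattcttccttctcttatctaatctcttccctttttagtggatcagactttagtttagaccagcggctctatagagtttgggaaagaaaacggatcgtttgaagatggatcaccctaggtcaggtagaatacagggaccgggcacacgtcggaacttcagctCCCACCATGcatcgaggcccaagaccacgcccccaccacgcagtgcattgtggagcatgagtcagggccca
Acadl: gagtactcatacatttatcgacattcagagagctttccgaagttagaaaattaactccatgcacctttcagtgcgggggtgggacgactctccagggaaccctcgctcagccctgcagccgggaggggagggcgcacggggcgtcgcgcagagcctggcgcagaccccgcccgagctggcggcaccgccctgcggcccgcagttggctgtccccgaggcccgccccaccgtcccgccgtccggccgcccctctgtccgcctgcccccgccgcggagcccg
In *Acadvl* the capitals lie 41 to 33 bases before the start, and *Acadl* holds none. The searches and shares that follow use the whole RefSeq windows of 300 bases, which run from 250 bases before to 50 after each start. These letters were found in 1 of the 9 member promoters available, in 5.01% of all 32851 promoter windows and in 16.9% of windows of genes that the study lists for ZNF143 association at the promoter. *Acadvl* is the only member on that list, 1 of 10 beside 6.98% of all genes tested, and the list rests in part on expression in these libraries and is therefore not independent of the fall. A part of the ZNF143 binding sequence, ACTACAATT, was in 0 of 9 member windows, in 0.393% of all windows and in 5.16% of those of listed genes. Its other part, TTCCCAGNA, which shares letters with the pattern in capitals, was in 0 of 9, in 3.61% and in 12.5%. Only exact letters of these parts were searched, so that 0 of 9 does not show that a binding sequence is absent. The direct repeat known as the PPAR response element was in 0 of 9 member windows and in 0.0396% of all windows. This repeat too was searched only as exact letters, so that 0 of 9 does not show that such an element is absent. The share of G and C was 50.7% in the *Acadvl* window, the lowest of the 9, and 70.3% in that of *Acadl*, the highest, beside a median of 52.7% over all windows. CpG dinucleotides numbered 9 in the *Acadvl* window and 34 in that of *Acadl*, with a median of 7 over all windows.

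**Figure D1:**
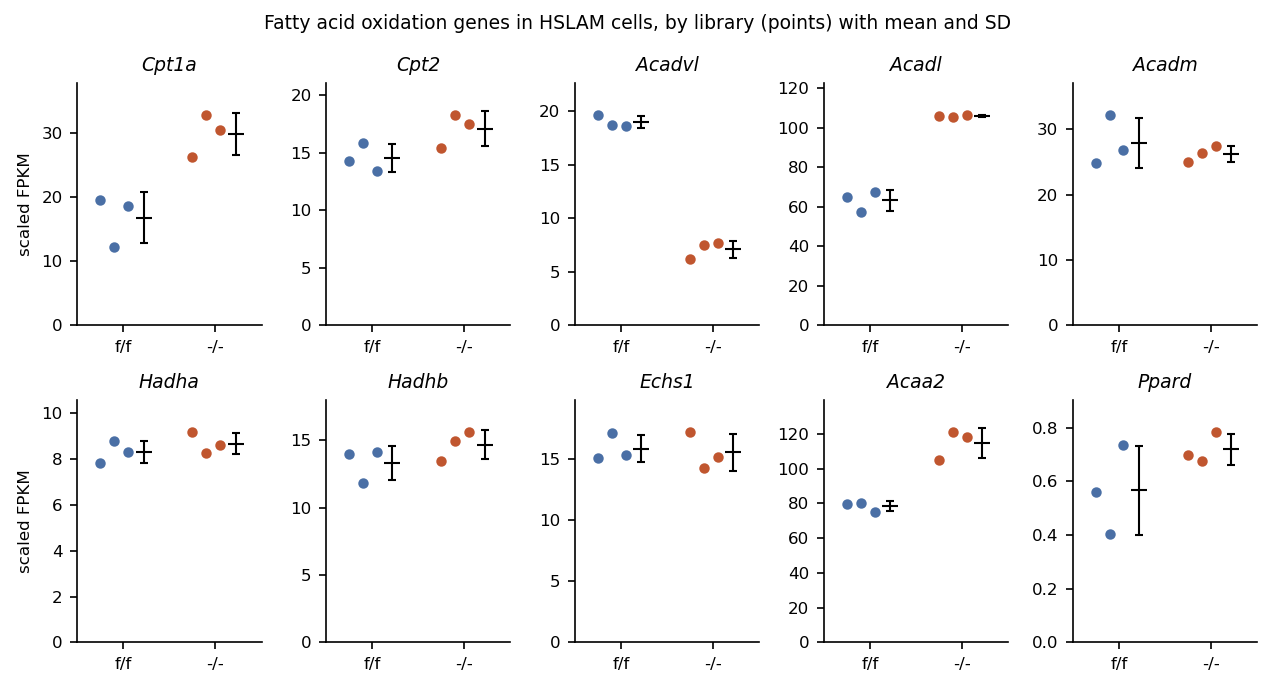
Scaled FPKM (linear axis from 0) of each member, with a point for each of 3 *Znf143 f/f* (blue) and 3 *Znf143 -/-* (orange) libraries and a black bar for mean and SD. *Acadvl* lies lower in all *Znf143 -/-* libraries, *Cpt1a*, *Acadl* and *Acaa2* lie higher in all of them, and the other 6 genes overlap.

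At the carnitine shuttle, *Cpt1a* (chr19:3322334-3385733, GRCm38, plus strand) was measured at 19.6, 12.2 and 18.6 in *Znf143 f/f* and at 26.3, 32.9 and 30.4 in *Znf143 -/-* libraries. All *Znf143 -/-* values lay above all controls, and the second control was the lowest of the 6. The log2 fold change was 0.85 ± 0.194 (SE), with a 95% interval from 0.39 to 1.32 and an adjusted p of 0.0538 in limma. Without the second *Znf143 f/f* library, in which the erythroid sum was highest, the log2 fold change was 0.64 and the adjusted p 0.0294. The adjusted p was also 0.0347 in voom with all 6 libraries. *Cpt1a* was called in only these 2 of 15 alternative settings. Its limma adjusted p reached 0.190 without the third *Znf143 -/-* library and was 0.153 with the replicate number as a block. *Cpt2* (chr4:107903981-107923610, minus strand), the inner membrane partner, was measured at 14.3, 15.9 and 13.4 against 15.4, 18.3 and 17.5. The ranges touch at the first *Znf143 -/-* library, and the log2 fold change of 0.23 (95% interval -0.02 to 0.48) was not called (limma adjusted p = 0.239). The ratio of *Cpt1a* to *Cpt2* within a library does not depend on the scaling. It was 1.37, 0.768 and 1.38 in controls and 1.71, 1.80 and 1.73 after deletion. The groups did not overlap, at p = 0.1 in a two-sided exact permutation test, the smallest p that 3 against 3 libraries allow.

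Among the acyl-CoA dehydrogenases, *Acadvl* (chr11:70010183-70015411, minus strand), which starts the oxidation of very long chains, was measured at 19.7, 18.7 and 18.6 in *Znf143 f/f* libraries. The *Znf143 -/-* libraries gave 6.21, 7.47 and 7.65, all below the lowest control. The log2 fold change was -1.41 ± 0.105 (SE), with a 95% interval from -1.66 to -1.16 and an adjusted p of 0.00135 in limma. *Acadvl* was called lower in each of the 15 alternative settings run, with log2 fold changes from -1.46 to -1.30. Its exons share 1151 of 2686 bases with exons of *Dvl2* on the opposite strand, and the library kit does not mark strand. *Dvl2*, a Wnt signal transducer, was measured at 4.36 to 5.33 and 4.13 to 4.78 and was not called (log2 fold change -0.08, limma adjusted p = 0.746).

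*Acadl* (chr1:66830839-66863277, minus strand), which acts on long chains, was measured at 65.0, 57.3 and 67.4 in *Znf143 f/f* and at 106, 105 and 107 in *Znf143 -/-* libraries. The deleted libraries were all higher and lay close together, with an SD of 0.595 against 5.25 in controls. The log2 fold change was 0.75 ± 0.0884 (SE), with a 95% interval from 0.54 to 0.96 and an adjusted p of 0.00771 in limma. The call was kept in 13 of 15 alternative settings. It was lost without the third *Znf143 -/-* library, at an adjusted p of 0.0577 and a log2 fold change of 0.74, and with the replicate number as a block (adjusted p = 0.0704). *Acadm* (chr3:153922357-153944632, minus strand), the medium-chain enzyme, was measured at 24.9, 32.3 and 26.8 against 25.0, 26.4 and 27.4. The second control was the highest and the *Znf143 -/-* values lay within the control range. The log2 fold change was -0.08 (95% interval -0.35 to 0.19, limma adjusted p = 0.703), and its sign turned on the deposited scale and without the second control.

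**Figure D2:**
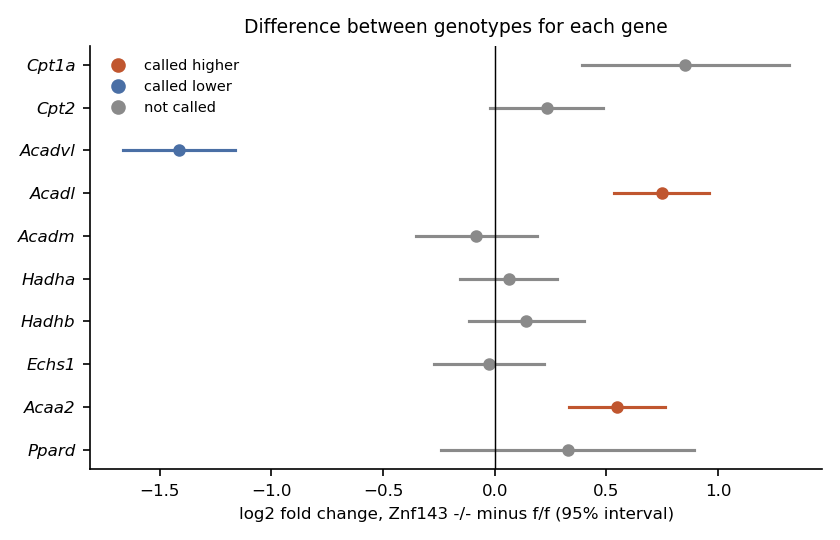
Fitted log2 fold change (*Znf143 -/-* minus *Znf143 f/f*, points) with its 95% interval (lines) for each member, from limma over 3 against 3 libraries, coloured by call. *Acadvl* stands at -1.41, *Acadl* at 0.75 and *Acaa2* at 0.55, while *Cpt1a*, at 0.85 with the widest interval but that of *Ppard*, was not called.

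The ratio of *Acadl* to *Acadvl* was computed after their values had been seen, to show how far they moved apart. In *Znf143 f/f* libraries it was 3.30, 3.06 and 3.62. In *Znf143 -/-* libraries it was 17.0, 14.1 and 13.9, on average 4.51 times the control ratio. The ratio of *Acadm* to *Acadvl* was 1.26, 1.72 and 1.44 in controls and 4.03, 3.53 and 3.58 after deletion. Neither ratio overlapped between genotypes, each at the smallest exact permutation p of 0.1 (two-sided). That outcome was fixed for *Acadl* over *Acadvl*, since *Acadl* lay above and *Acadvl* below all controls in every deleted library. The ratio of *Acadm* to *Acadvl* repeats the fall of *Acadvl*, since *Acadm* lay within the control range. These p-values therefore add no support. By level per length, *Acadvl* ranked 4 among the 10 members in every control library and 9 in every deleted library, above *Ppard* alone. *Cpt1a* ranked 5, 7 and 5 in controls and 3 in every deleted library. These ranks depend on the listed lengths. Those of *Cpt1a* and *Ppard*, 4300 and 4631 bases, are under the 7642 and 7514 bases of all their annotated exons joined.

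**Figure D3:**
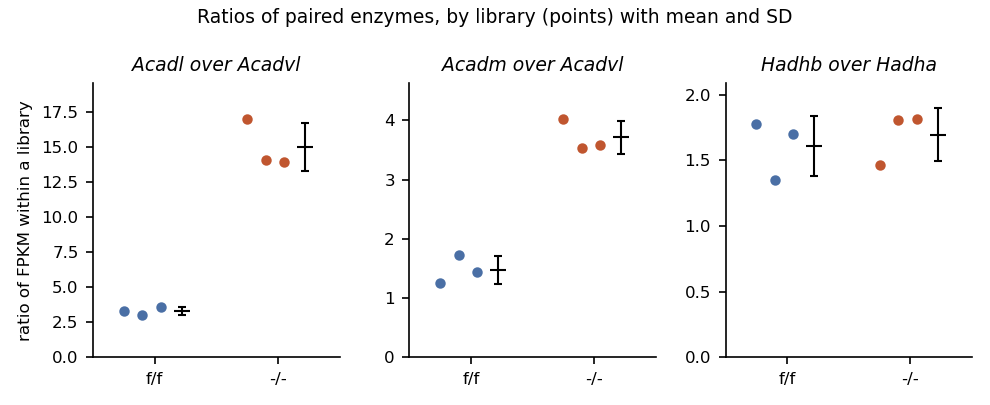
Ratios of FPKM within each library (linear axis from 0, points) with mean and SD (black bar) for 3 *Znf143 f/f* (blue) and 3 *Znf143 -/-* (orange) libraries. *Acadl* over *Acadvl* rose from at most 3.62 to at least 13.9, while *Hadhb* over *Hadha* overlapped between genotypes.

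The subunits of the trifunctional protein showed no called difference. *Hadha* (chr5:30118304-30155162, minus strand), with the hydratase and dehydrogenase activities, was measured at 7.85, 8.78 and 8.32 in *Znf143 f/f* and at 9.19, 8.26 and 8.60 in *Znf143 -/-* libraries. *Hadhb* (chr5:30155248-30184593, plus strand), with the thiolase activity, was measured at 13.9, 11.8 and 14.1 against 13.5, 14.9 and 15.6. Both genes overlapped between genotypes, with log2 fold changes of 0.06 (95% interval -0.16 to 0.28) and 0.14 (-0.11 to 0.40) and limma adjusted p of 0.728 and 0.472. They lie head to head, with 272 bases between their RefSeq starts and 228 bases shared by their promoter windows. The ratio of *Hadhb* to *Hadha* was 1.78, 1.35 and 1.70 in controls and 1.46, 1.81 and 1.82 after deletion, which overlapped (exact permutation p = 0.5, two-sided).

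*Echs1* (chr7:140105710-140116476, minus strand), the short-chain hydratase, was measured at 15.04, 17.1 and 15.3 in *Znf143 f/f* and at 17.2, 14.2 and 15.1 in *Znf143 -/-* libraries. The groups overlapped and the highest and lowest libraries were both deleted ones. The log2 fold change of -0.03 (95% interval -0.27 to 0.22, limma adjusted p = 0.904) changed sign with the scaling. The listed lengths of *Echs1*, *Hadha* and *Hadhb* are 8286, 8730 and 6595 bases, equal to all their annotated exons joined, and the level per length depends on these lengths. Exons of *Echs1* and *Hadha* share 142 and 75 bases with *Paox* and *Garem2* on the opposite strand.

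*Acaa2*, the thiolase of the last step, had the highest mean level of the members, with 79.6, 80.2 and 75.0 in *Znf143 f/f* and 105, 121 and 118 in *Znf143 -/-* libraries. All deleted libraries lay above all controls, the first of them the lowest. The log2 fold change was 0.55 ± 0.0897 (SE), with a 95% interval from 0.33 to 0.76 and an adjusted p of 0.0206 in limma. The call was kept in 8 of 15 alternative settings and lost in 7, among them the deposited scale (adjusted p = 0.0625) and the fits without the first or the third control or the second or the third *Znf143 -/-* library (0.0923, 0.115, 0.0925 and 0.125). Its log2 fold change stayed between 0.51 and 0.66 in all 15. The sum of the 10 members was 260, 255 and 258 in controls and 324, 350 and 348 after deletion. Its exact permutation p was 0.1 (two-sided), the smallest possible. *Acaa2*, *Acadl* and *Cpt1a* had already been seen above all controls and weigh most in this rise, so that the p adds no support. *Acadvl* made up 7.21% to 7.56% of the sum in controls and 1.92% to 2.20% after deletion.

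*Ppard* (chr17:28232700-28301474, plus strand) was the lowest of the members, with 0.561, 0.403 and 0.733 in *Znf143 f/f* and 0.696, 0.676 and 0.784 in *Znf143 -/-* libraries. The second control was lowest and the third control lay within the deleted range. Only 92 to 212 fragments per library lay on the gene, and the log2 fold change of 0.33 had a 95% interval from -0.24 to 0.89 (limma adjusted p = 0.453). The related receptor genes *Ppara* and *Pparg* lay under the filter, with at most 40 and 36 fragments in any library.

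The rest of the pathway was read from a list of 66 further genes, of which 57 passed the filter. Of these, 5 were called higher and 4 lower, or 15.8% in all, beside 5.99% of all genes tested. The median log2 fold change was 0.04. The list was chosen with earlier results of these data known, and 5.99% also stands beside the counts by group that follow. In the carnitine shuttle, 1 of 8 genes was called. *Slc25a20*, the carrier that exchanges acylcarnitine for carnitine across the inner membrane, was measured at 13.3, 14.1 and 13.7 in *Znf143 f/f* and at 20.8, 21.1 and 20.8 in *Znf143 -/-* libraries. All deleted libraries were higher (log2 fold change 0.60 ± 0.0722, SE, limma adjusted p = 0.00776). The call was kept in 12 of 15 alternative settings and lost without the third *Znf143 f/f* library (adjusted p = 0.0577) or the third *Znf143 -/-* library (0.0643). *Acsl5*, an acyl-CoA synthetase and the most abundant gene of this group, was measured at 31.4 to 33.1 against 28.2 to 37.0 and was not called (limma adjusted p = 0.824).

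Of 12 other mitochondrial oxidation enzymes, 1 was called. *Eci2*, an isomerase for unsaturated chains, was measured at 17.0, 17.7 and 16.5 against 22.5, 21.7 and 21.4. It lay higher in all deleted libraries (log2 fold change 0.35, limma adjusted p = 0.0440), and the call was kept in 7 of 15 alternative settings. *Hsd17b10*, the most abundant of the group, overlapped at 223 to 303 against 226 to 269. None of the 3 genes of the electron transfer flavoprotein system, which takes electrons from the acyl-CoA dehydrogenases, was called. *Etfb*, its most abundant gene, was measured at 157, 149 and 144 against 227, 186 and 182 (log2 fold change 0.39, limma adjusted p = 0.0931), without overlap.

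Of 12 peroxisomal genes tested, 1 was called. *Decr2*, the peroxisomal dienoyl-CoA reductase for unsaturated chains, was measured at 15.5, 9.85 and 15.6 in *Znf143 f/f* and at 1.497, 0.987 and 0.995 in *Znf143 -/-* libraries. All deleted libraries lay far below the controls (log2 fold change -3.44 ± 0.239, SE, limma adjusted p = 0.00106), in each of the 15 alternative settings too. *Decr2* lies at chr17:26081208-26090337. Of the 66 pathway genes, *Decr2*, *Hsd17b4* and *Rxrb* are on the study's ZNF143 list (4.55%), and the latter 2 were not called. *Scp2*, the most abundant gene of the group, overlapped at 46.0 to 62.2 against 53.3 to 58.1.

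Among the partners and regulators, *Prkaa2* was called lower. *Prkaa2*, a catalytic subunit of the energy sensor AMPK, was measured at 0.897, 0.596 and 1.05 against 0.144, 0.268 and 0.221 (log2 fold change -1.60, limma adjusted p = 0.0272). All deleted libraries lay below all controls, and the call was kept in 9 of 14 alternative settings. *Rxrb*, a partner receptor of PPARD and the most abundant gene of this group, overlapped at 22.9 to 26.6 against 24.2 to 24.9.

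Of 8 tested PPAR targets outside oxidation, 3 were higher and 1 lower. *Acot1*, a cytosolic acyl-CoA thioesterase, was measured at 3.44, 3.999 and 3.29 against 17.3, 14.8 and 14.5 (log2 fold change 2.09 ± 0.119, SE, limma adjusted p = 0.000641). *Acot2*, its mitochondrial neighbour on chromosome 12, was measured at 8.99, 8.60 and 9.28 against 15.9, 14.4 and 14.2 (log2 fold change 0.72, limma adjusted p = 0.00782). Both were higher in all deleted libraries, but the genes are close copies, so that the split of fragments between them is uncertain. *Acot1* kept its call in 15 of 15 alternative settings and *Acot2* in 12, with adjusted p of 0.0504 without the third *Znf143 f/f* and 0.0525 without the third *Znf143 -/-* library. *Ucp2*, an inner membrane carrier and the most abundant gene of the group, was measured at 91.7, 94.4 and 88.4 against 122, 120 and 117 (log2 fold change 0.39, limma adjusted p = 0.0355). *Angptl4*, a secreted inhibitor of lipoprotein lipase, was measured at 6.18, 6.94 and 6.30 against 4.47, 4.46 and 4.96 (log2 fold change -0.48, limma adjusted p = 0.0444). The called targets did not share a direction, and *Ucp2* and *Angptl4* kept their calls in 8 and 7 of 15 alternative settings.

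**Figure D4:**
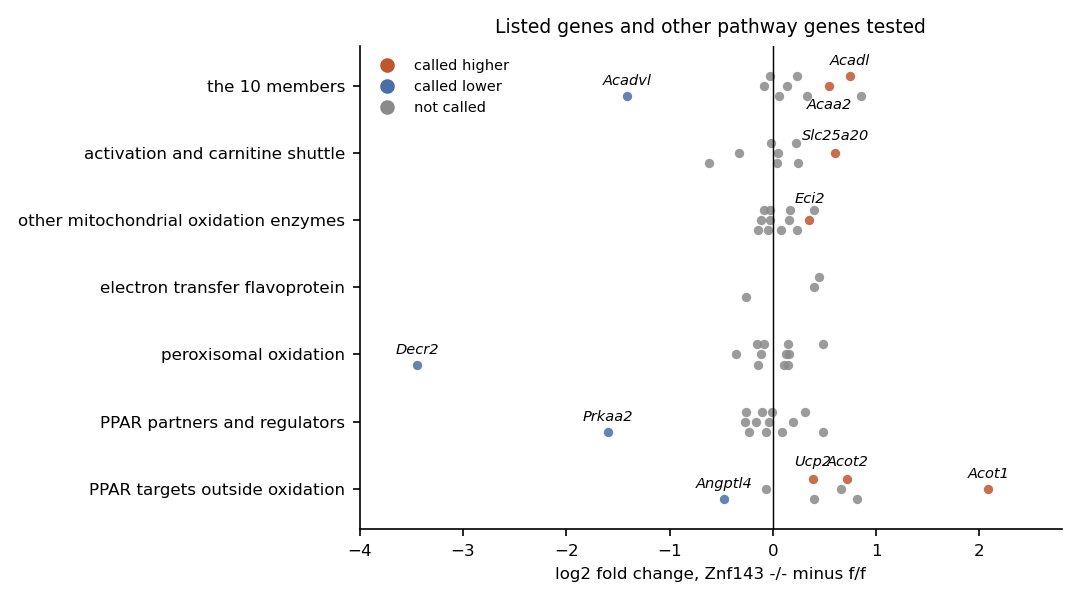
Fitted log2 fold change (*Znf143 -/-* minus *Znf143 f/f*) of the 10 members and of the other pathway genes reported here, by group, with called genes coloured and named. Most genes lie near 0, with *Decr2* at -3.44 and *Acot1* at 2.09 at the ends.

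The calls of the members differed in how much they depended on single libraries. Without the third *Znf143 -/-* library, 1 of the 10 members was called (*Acadvl*). Without the second *Znf143 f/f* library, 4 were called, with *Cpt1a* as the fourth.

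**Figure D5:**
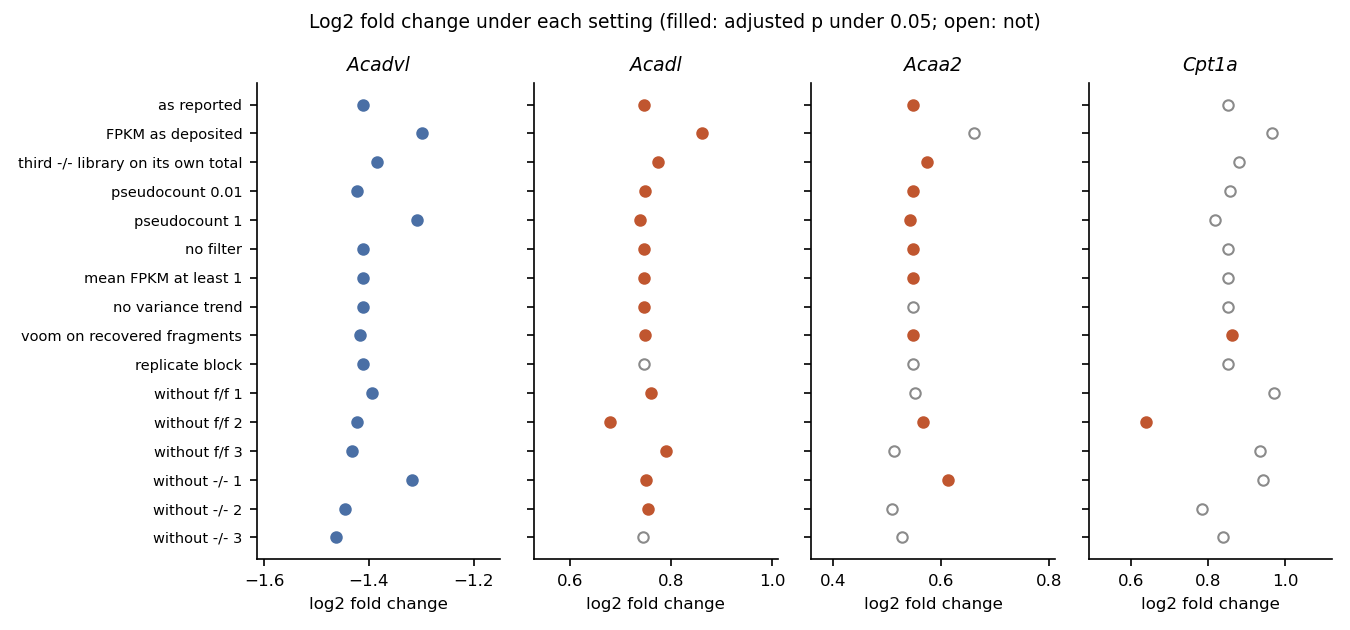
Log2 fold change of *Acadvl*, *Acadl*, *Acaa2* and *Cpt1a* as reported and under each of 15 alternative settings, filled where the adjusted p is under 0.05 and open where it is not, with a separate axis range for each gene. *Acadvl* is filled throughout, *Acadl* in 13 alternatives, *Acaa2* in 8 and *Cpt1a* in 2.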

How the data were processed

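The 6 RNA-seq libraries of HSLAM cells, 3 for each genotype, were analysed, and the other 19 samples of the series (ChIP-seq and HiC) were not used here. The authors trimmed (TrimGalore), aligned (STAR, GRCm38) and counted (FeatureCounts) the reads and ran their own comparison in DESeq2. The authors deposited the FPKM of each library and the gene length, from which all values here were computed. The deposited mean counts, fold changes, test statistics and p-values of the authors' own comparison were not used. The strand setting of the counting is not given in the sources used here. Libraries were grouped by the sample labels. Replicates are separate mice.

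FPKM times length gave whole fragments in 99.986% of 138696 values (tolerance 0.05). FPKM were divided by median-of-ratios size factors. Genes with a mean of at least 0.1 were tested on log2(scaled FPKM + 0.1) in limma 3.58.1 (R 4.3.3, lmFit, eBayes with a variance trend, two-sided), adjusted over all genes by Benjamini-Hochberg. Fold changes are on that scale and understate changes of low genes. The fit was tested on simulated data. Levels are means ± SD or values by library, and ratios of means use scaled FPKM. Depth sets counting error only.

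The members and gene lists were chosen with earlier results of these data known. Named are all 10 members and, of the pathway list, each called gene and the most abundant gene of each group. Single genes of these lists are counted but not reported here by name. *Zfp143*, *Dvl2* and several marker genes are named as checks. Coordinates and exons came from GENCODE M21 and promoters from RefSeq (GRCm38.p6), with 1 window for each of 9 members. A comparison of protein sequences had been planned and was not made, since no protein table was used here. The alternatives were the deposited scale, the third *Znf143 -/-* library on its own total, pseudocounts of 0.01 and 1, no filter, a minimum of 1, no variance trend, voom on recovered fragments, a replicate block and each library left out.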

Additional observations from a re-analysis of the deposited data

How the results depend on the processing

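Of 15 alternative settings, 8 kept the count of called genes (1154) within 1.5 times, 13 that of the members (3) and 9 that of the pathway genes (9). *Acadvl* and *Zfp143* kept their direction and call in all 15. On the deposited scale, 5 pathway genes were called and the members' median log2 fold change was 0.30. *Acadm* reversed to 0.030 and *Echs1* to 0.086 there, and *Echs1* to 0.00036 with the third *Znf143 -/-* library on its own total. With each library left out, 227 to 2291 genes, 1 to 4 members and 2 to 12 pathway genes were called, and the members' median lay between 0.12 and 0.25. With a library left out, *Acadm* ranged from -0.17 (first control) to 0.025 (second control) and *Echs1* from -0.10 (first *Znf143 -/-* library) to 0.036 (second *Znf143 -/-* library), and *Echs1* was at 0.031 in the absence of the second control. The counts fell to 371, 256, 349 and 227 genes and to 4, 2, 4 and 2 pathway genes without the first or the third control or the second or the third *Znf143 -/-* library. They rose to 2291 and 2107 genes without the second control or the first *Znf143 -/-* library. Each such fit has fewer samples, and the cause was not tested further. *Acaa2* missed the threshold without a variance trend (adjusted p = 0.0501) and *Cpt1a* passed it with voom (0.0347).

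With the replicate number as a block, 191 genes, 1 member (*Acadvl*) and 2 pathway genes were called, and the adjusted p was 0.0704 for *Acadl* and 0.122 for *Acaa2*. Deviations of same-numbered libraries from their group means correlated at -0.095, -0.088 and 0.035 across genes. Those of libraries with different numbers correlated at -0.044 to 0.105. Littermates need not deviate together, so that these values cannot decide whether the numbers pair the samples. The study describes 3 pairs of littermates and does not say which libraries form a pair.

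At 3 against 3 libraries a member that was not called is not shown to be unchanged.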

Other observations

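The acyl-CoA thioesterase genes, which release free fatty acids from acyl-CoA, were looked at after the values of *Acot1* and *Acot2* had been seen. Of 11 *Acot* genes in the table, all tested, 4 were called higher (*Acot1* to *Acot4*) and 1 lower (*Acot7*). Over all genes tested, 5.99% were called. *Acot4*, a peroxisomal enzyme, was measured at 0.128, 0.0943 and 0.129 in *Znf143 f/f* and at 0.368, 0.360 and 0.441 in *Znf143 -/-* libraries (log2 fold change 1.17, limma adjusted p = 0.0399). *Acot3* had 0 fragments in all 3 controls and 28, 52 and 52 after deletion, so that no fold is given. It passed the filter on low values only through the deleted libraries, so that its call, counted above, adds no support. These 4 genes are close copies and fragments may be split between them. *Acot7*, a cytosolic enzyme encoded elsewhere, was measured at 98.4, 95.9 and 96.8 against 67.4, 68.0 and 66.4, lower in all deleted libraries (log2 fold change -0.53, limma adjusted p = 0.0106). *Acot8* and *Acot13*, with further thioesterase activity in peroxisomes and mitochondria, overlapped between genotypes and were not called (limma adjusted p of 0.848 and 0.545).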
